A study of Homo sapiens with 11 samples.

Results

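The transcripts described are 8 noncoding RNAs that host small nucleolar RNAs (snoRNAs) in their introns: GAS5, ZFAS1, SNHG1, SNHG5, SNHG6, SNHG7, SNHG8 and SNHG12. They were chosen by symbol, and each was to be read from the probe set with a single gene symbol that had the highest mean over 11 arrays. Only 2 of the 8 had such a probe set, GAS5 with 1560402_at and ZFAS1 with 226227_x_at. The other 6 genes, and the bright probe sets of GAS5, were listed with the host gene together with its snoRNAs. RefSeq places each listed snoRNA inside its host gene: 8 of 8 for GAS5 and for SNHG1, 2 of 2 for SNHG5 and SNHG7, 1 of 1 for SNHG6 and SNHG8, and 3 of 3 for SNHG12. Such a probe set is therefore named here by its host locus, and all 18 probe sets of the 8 loci are described, out of 54613 tested. Of these, 5 had a single symbol and 13 were listed with snoRNAs. The probe set with the highest mean stands for its locus, so the level of that probe set is what chose it and is given without a test.

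The cells were Reh, an established B-cell precursor leukaemia line with the ETV6-RUNX1 fusion. Every group, the control included, carried a lentiviral construct that stably expressed miR-125b, and all cells received precursor oligonucleotides with Lipofectamine. The control group of 2 arrays received a scrambled oligo at 66 µM, the miR-99a group of 3 arrays and the miR-100 group of 3 arrays received the named oligo at 66 µM, and the combination group of 3 arrays received 33 µM of each. A second dose followed the first by 72 h and the cells were harvested 48 h later. Control arrays are numbered replicate 1 and 2, and each treatment has replicates 1, 2 and 3. The labels state incubation in triplicate but not that each number is a separate culture or a shared day, so p-values measure the spread between these arrays, which may be technical. A bulk array reads total RNA of the culture, so fewer cells of a kind and less RNA per cell cannot be told apart.

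A snoRNA host gene is transcribed and spliced like a messenger RNA. Its introns are trimmed into snoRNAs, which guide the methylation (box C/D class) or pseudouridylation (box H/ACA class) of ribosomal RNA, while the spliced exons leave the nucleus as a noncoding RNA. Many of these spliced RNAs start with a 5′ terminal oligopyrimidine (TOP) tract, a cytosine followed by a run of pyrimidines that also opens the messages of ribosomal proteins. The tract places translation under the control of mTOR and of the RNA-binding protein LARP1. Ribosomes that engage the short open reading frames of GAS5 and similar hosts send them to nonsense-mediated decay, so that their level depends on translation as well as on transcription. GAS5 is known for accumulating in growth-arrested lymphocytes and for binding the glucocorticoid receptor, and ZFAS1 for association with ribosomes.

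The start of each host gene is shown because the TOP tract is the feature that these RNAs are said to share with ribosomal protein messages. The sequences run from 20 bases before to 40 bases from the annotated start, on the transcribed strand, in RefSeq's GRCh38.p14 assembly. Capitals mark the run of at least 5 pyrimidines nearest the start. Of the 8 genes 7 had a start in the table and SNHG6 is named only.
GAS5, chr1:173869006-173869065, minus strand: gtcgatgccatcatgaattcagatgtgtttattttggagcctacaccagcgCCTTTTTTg
ZFAS1, chr20:49278622-49278681, plus strand: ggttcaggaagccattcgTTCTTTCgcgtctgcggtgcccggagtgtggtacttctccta
SNHG1, chr11:62855846-62855905, minus strand: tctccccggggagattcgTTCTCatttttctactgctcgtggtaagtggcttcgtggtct
SNHG5, chr6:85678694-85678753, minus strand: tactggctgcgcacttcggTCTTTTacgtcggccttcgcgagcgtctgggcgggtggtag
SNHG7, chr9:136728145-136728204, minus strand: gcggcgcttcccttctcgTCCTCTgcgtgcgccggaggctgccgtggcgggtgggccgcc
SNHG8, chr4:118278742-118278801, plus strand: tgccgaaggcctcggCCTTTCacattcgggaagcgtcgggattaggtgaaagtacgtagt
SNHG12, chr1:28581834-28581893, minus strand: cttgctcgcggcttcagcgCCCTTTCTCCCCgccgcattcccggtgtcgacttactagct

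In 6 of these 7 genes the run of pyrimidines spanned the annotated start, whereas in GAS5 the annotated first base was A and the nearest run lay at positions 32 to 39, counted from 1 at the start. The strict form, C as the first base followed by at least 4 pyrimidines (C or T) on the transcribed strand, was present in ZFAS1, SNHG5 and SNHG12, 3 of 7 or 42.9%. It opened 1417 of 34943 promoters of the same table (4.06%) and 35 of 54 promoters listed for ribosomal protein genes (64.8%). Of the promoters of other genes on a list of known TOP messages it opened 11 of 14 (78.6%). The looser form, any run of at least 5 pyrimidines on that strand that touched the 10 bases on either side of the start, includes the strict one. It was found in 6 of 7 hosts (85.7%), 51 of 54 ribosomal protein promoters (94.4%), 13 of 14 promoters of other TOP genes (92.9%) and 47.4% of all promoters. These are letters at annotated starts, and the starts used in Reh cells were not measured here.

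The oligos are shown because they differ so little. RefSeq's mature sequences, with the seed (bases 2 to 8) in capitals, have the same seed and differ at 1 of 22 positions, U16A, counted from the 5′ end of miR-99a.
miR-99a-5p: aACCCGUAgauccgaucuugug
miR-100-5p: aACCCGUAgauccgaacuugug

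Values were log2 expression between 4.398 and 14.839, with array medians of 5.95 to 5.98 and no file of counts, so the number of arrays limits the precision. Of 13 measured genes of immature B cells 11 had a mean of at least 8, with a median of 11.25, and VPREB1 and CD38 stood at 5.48 and 6.83. Of the genes of T cells, myeloid cells, erythroid cells, and fibroblasts or epithelium (4, 4, 2 and 4 measured) none reached 8. The arrays numbered replicate 3 stood apart: over 19775 genes they correlated with each other at 0.9977 to 0.998 and with the other treated arrays at 0.9894 to 0.993. Control has no replicate 3, so each comparison below is read with the replicate number beside it.

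The host loci were among the bright features of the array, where the median gene had a level of 6.4. The brightest probe set of each locus had a mean of at least 10.06 log2 units, and of 13.34 for SNHG6, 13 for SNHG5 and 12.54 for ZFAS1. Because probes bind with unequal strength, the levels do not order the genes by amount. Within a locus the probe sets spanned a wide range, from 6.67 to 11.95 for GAS5 and from 7.79 to 12.54 for ZFAS1.

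**Figure D1:**
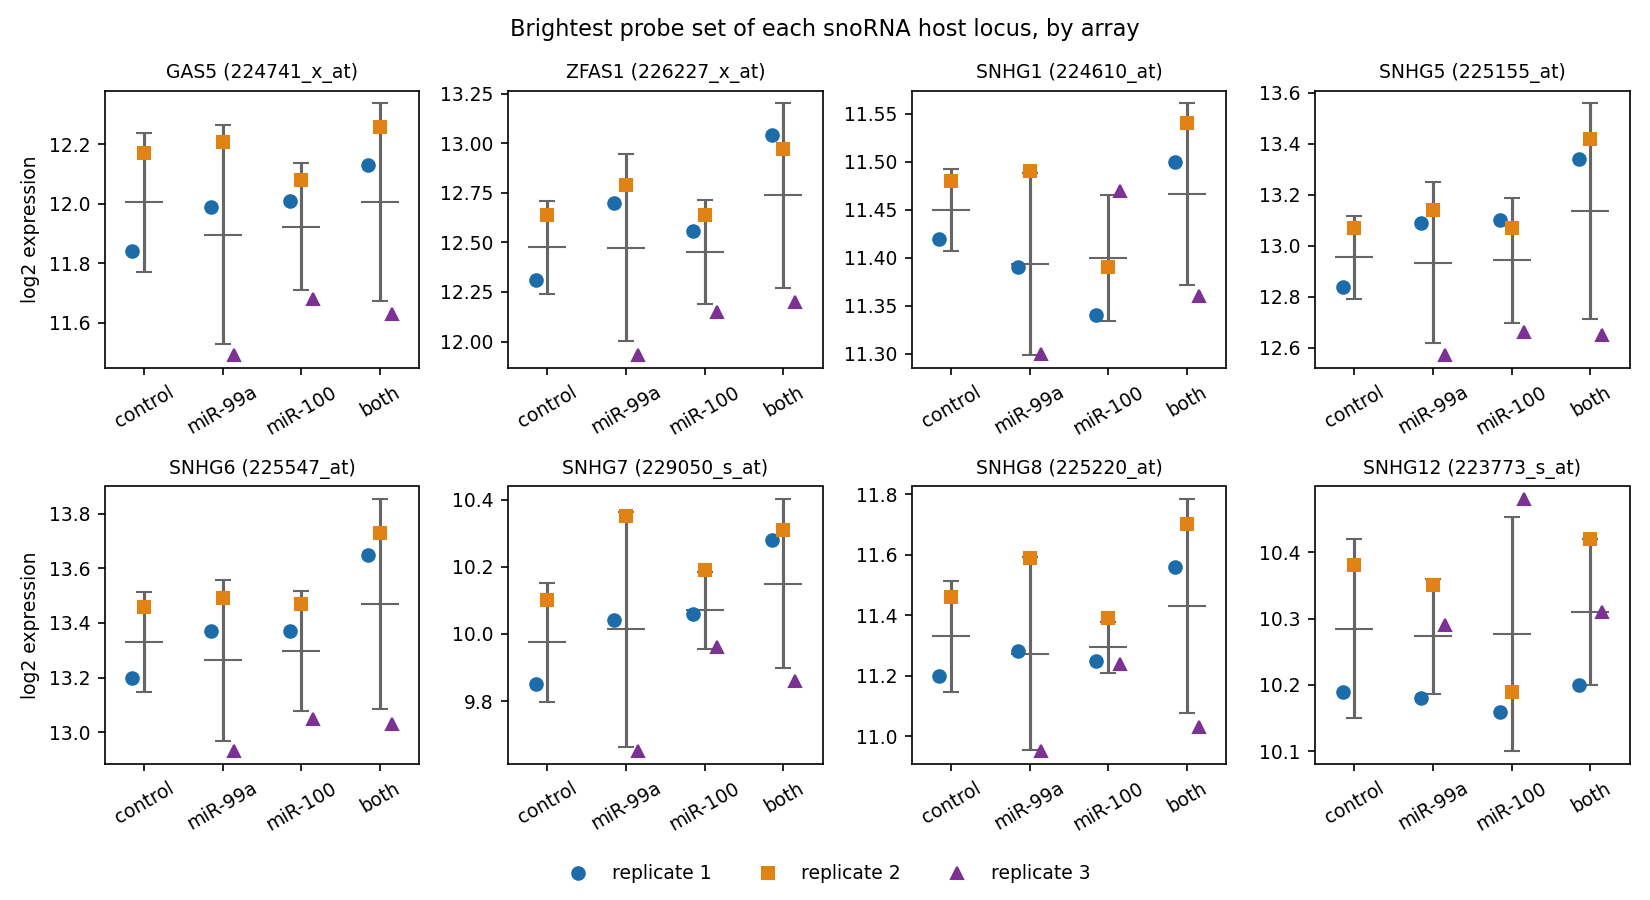
Log2 expression (y axis, a separate scale in each panel) of the brightest probe set of each host locus in the 4 groups (x axis), with a point per array shaped by replicate number. The horizontal line is the group mean and the bar is 1 SD (control n = 2, treatments n = 3). In 6 of the 8 panels the 3 triangles of replicate 3 lie below every treated array of replicates 1 and 2.

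The clearest pattern over the host loci was a low level in replicate 3 of every treatment. ZFAS1, SNHG5, SNHG6, GAS5, SNHG7 and SNHG8 fell in replicate 3 at their brightest probe set, by 0.38 to 0.69 on the log2 scale, whereas SNHG1 and SNHG12 did not pass the test.

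ZFAS1, read by 226227_x_at, had 12.31 and 12.64 in control, 12.7, 12.79 and 11.93 with miR-99a, 12.56, 12.64 and 12.15 with miR-100, and 13.04, 12.97 and 12.2 with both oligos, in the order of the replicate numbers. The 3 values of replicate 3, 11.93 to 12.2, lay below both control arrays and below every other treated array. The difference of replicate 3 from replicates 1 and 2 within the treatments was -0.69 ± 0.07 (SE, limma, 9 arrays, adjusted p = 2.79e-14). SNHG5, which hosts box C/D snoRNAs of the U50 family, had 12.84 and 13.07 in control, 13.09, 13.14 and 12.57 with miR-99a, 13.1, 13.07 and 12.66 with miR-100, and 13.34, 13.42 and 12.65 with both. Its replicate 3 values were again below all other arrays, and the difference was -0.56 ± 0.07 (adjusted p = 2.85e-11). SNHG6, the host of U87, had 13.2 and 13.46 in control, 13.37, 13.49 and 12.93 with miR-99a, 13.37, 13.47 and 13.05 with miR-100, and 13.65, 13.73 and 13.03 with both. Replicate 3 was the lowest here too, with a difference of -0.51 ± 0.07 (adjusted p = 6.98e-10).

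GAS5, at 224741_x_at, had 11.84 and 12.17 in control, 11.99, 12.21 and 11.49 with miR-99a, 12.01, 12.08 and 11.68 with miR-100, and 12.13, 12.26 and 11.63 with both. The replicate 3 values were below both controls, with a difference of -0.52 ± 0.07 from the other treated arrays (adjusted p = 5.2e-10). SNHG8, the host of an H/ACA snoRNA, had 11.2 and 11.46 in control, 11.28, 11.59 and 10.95 with miR-99a, 11.25, 11.39 and 11.24 with miR-100, and 11.56, 11.7 and 11.03 with both. The miR-100 array of replicate 3, at 11.24, lay just below replicate 1 of its group, at 11.25, and above the lower control array. The difference was -0.39 ± 0.07 (adjusted p = 4.17e-06). SNHG7, at 229050_s_at, had 9.85 and 10.1 in control, 10.04, 10.35 and 9.65 with miR-99a, 10.06, 10.19 and 9.96 with miR-100, and 10.28, 10.31 and 9.86 with both. Replicate 3 was below the other treated arrays, with a difference of -0.38 ± 0.07 (adjusted p = 2.97e-06), and 2 of its 3 values lay between the controls.

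SNHG1 and SNHG12 were not called lower. SNHG1, the host of a series of box C/D snoRNAs, had 11.42 and 11.48 in control, 11.39, 11.49 and 11.3 with miR-99a, 11.34, 11.39 and 11.47 with miR-100, and 11.5, 11.54 and 11.36 with both. Its groups overlapped throughout, with a replicate 3 difference of -0.06 ± 0.07 (adjusted p = 0.594, 95% interval -0.19 to 0.07). SNHG12, an H/ACA host read by 223773_s_at, had 10.19 and 10.38 in control, 10.18, 10.35 and 10.29 with miR-99a, 10.16, 10.19 and 10.48 with miR-100, and 10.2, 10.42 and 10.31 with both. Its difference was 0.11 ± 0.07 (adjusted p = 0.277, interval -0.02 to 0.24). The intervals of both genes exclude a fall as large as that of the 6 other loci, of which the smallest was -0.38. The annotated start of SNHG12 carries a run of 12 pyrimidines, printed above, while that of GAS5, which fell, carries none within 10 bases of it. ZFAS1 and SNHG5, which also have the strict form, had -0.69 and -0.56. Of the others with a run across the start, SNHG7 and SNHG8 fell and SNHG1 was not called. The starts used in Reh cells were not measured, and a link between the tract and the replicate 3 difference was not tested.

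Probe sets of the same locus did not always move together. At ZFAS1, 224915_x_at and 226835_s_at fell in replicate 3 with the brightest one, by 0.71 and 0.73 on the log2 scale, whereas 229899_s_at rose. That dim probe set had 7.93 and 7.64 in control, 7.83, 7.72 and 8.1 with miR-99a, 7.8, 7.52 and 8.14 with miR-100, and 7.57, 7.51 and 7.93 with both. Within each treatment its replicate 3 value was the highest, by 0.4 ± 0.07 (adjusted p = 5.7e-07).

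At GAS5, 224841_x_at followed the brightest probe set (-0.45 ± 0.07, adjusted p = 3.88e-08), and 227517_s_at went the other way. It had 10.59 and 10.61 in control, 10.39, 10.55 and 10.84 with miR-99a, 10.4, 10.35 and 10.92 with miR-100, and 10.1, 10.51 and 10.82 with both. All 3 replicate 3 values exceeded every other array, with a difference of 0.48 ± 0.07 (adjusted p = 1.26e-08). The GAS5 probe set 228238_at differed by 0.14 ± 0.07 (adjusted p = 0.107) and 1560402_at by 0.02 ± 0.06 (adjusted p = 0.896). The second probe set of SNHG7, 1552729_at, differed by 0.07 ± 0.07 (adjusted p = 0.555). At SNHG12, 228990_at rose by 0.33 ± 0.07 (adjusted p = 4.12e-05), and 223774_at had 0.17 ± 0.07 (adjusted p = 0.0571).

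Over the 11 arrays the probe sets of ZFAS1 correlated with 226227_x_at at 0.996, 0.993 and -0.89, and those of GAS5 with 224741_x_at at 0.995, -0.711, -0.341 and 0.0414. The second probe set of SNHG7 had -0.169 and those of SNHG12 had 0.782 and 0.694. These correlations share the 11 libraries and the replicate 3 difference and are given as a description. In the array maker's naming, x marks a probe set that may bind other sequences and s one that reads several transcripts. The exons each probe set reads were not analysed here, and which of them follows the spliced host RNA was not tested.

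In all, 12 of the 18 host probe sets were called in replicate 3, 9 lower and 3 higher, where 24.0% of all probe sets were called (8.99% lower and 15.0% higher). Calls were more frequent among brighter probe sets: of the 27307 at or above the median level, fitted alone, 12886 were called, 4717 lower and 8169 higher. Among the brightest probe sets 6 of 8 were called and all 6 were lower. Their median difference was -0.449, beside 0.004 over all probe sets. By the arrays themselves, 9 host probe sets in replicate 3 lay wholly below the other treated arrays and 4 wholly above, against 8.21% and 13.1% of all probe sets. Against control, 8 lay wholly below and 5 wholly above, against 14.7% and 18.7%. Leaving out each treated array in turn kept the calls of these 12 probe sets in 9 of 9 refits.

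**Figure D2:**
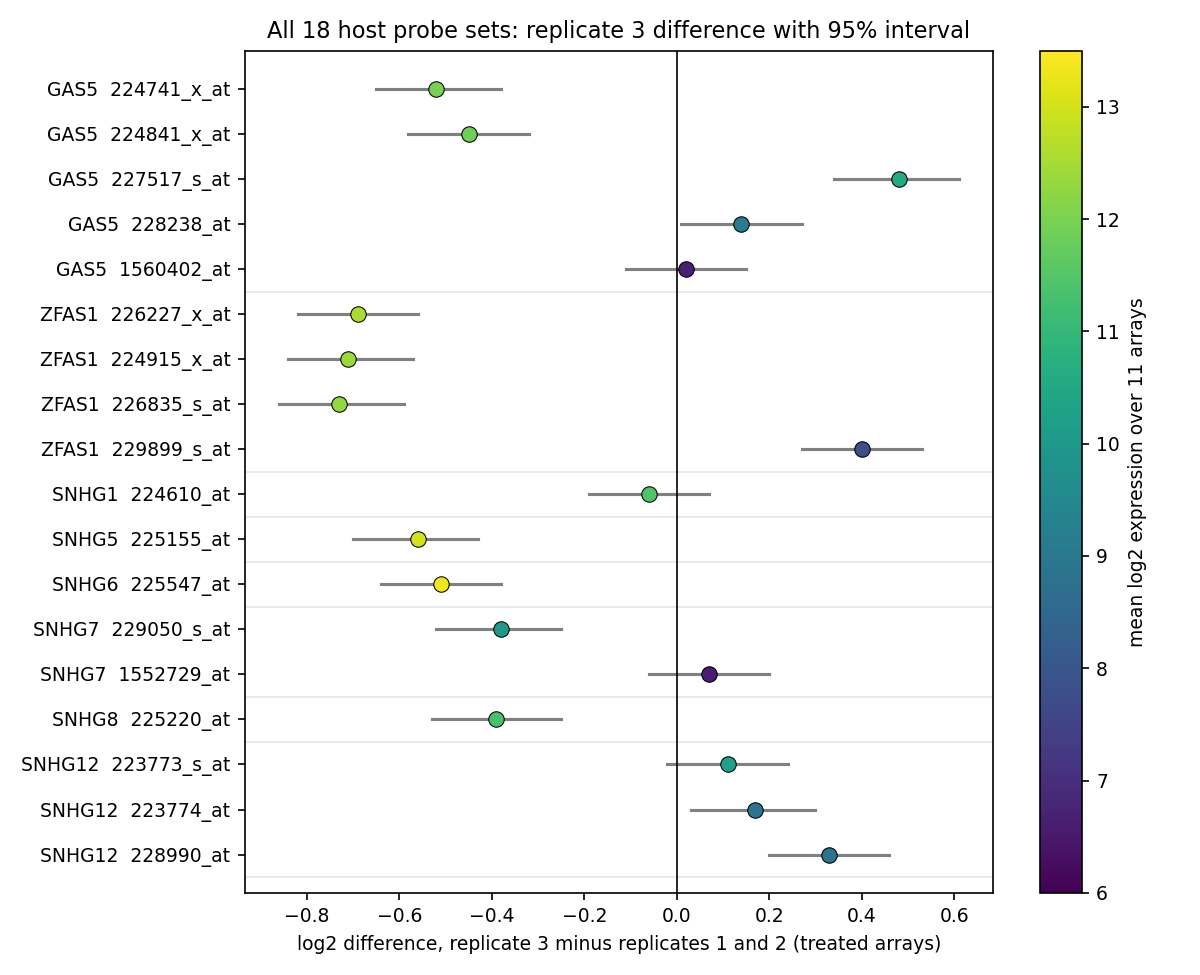
Log2 difference of replicate 3 from replicates 1 and 2 in the treated arrays (x axis) for the 18 host probe sets (y axis), with 95% intervals from limma and the mean level over 11 arrays as colour. The bright probe sets of ZFAS1, GAS5, SNHG5, SNHG6, SNHG7 and SNHG8 lie between -0.73 and -0.38, while 227517_s_at, 229899_s_at and 228990_at lie between 0.33 and 0.48.

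Over all probe sets with a level above 11 the median was lower in replicate 3. Leaving the hosts out, the median difference was 0.127 for 6677 probe sets with a level of 8 to 10, -0.035 for 1241 at 10 to 11, -0.157 for 640 at 11 to 12, -0.157 for 257 at 12 to 13, and -0.215 for 227 from 13 up. A difference below -0.3 was found in 32.2%, 40.0%, 37.4% and 33.9% of the probe sets in the last 4 of these level ranges. The 6 lower host loci had differences beyond -0.3 in each case. After quantile normalization, which brought the medians to 0.027, -0.003, 0.035 and -0.021 in the same 4 ranges and to 0.067 at 8 to 10, the 6 loci were still called lower, by 0.25 for SNHG8 to 0.49 for ZFAS1, and 24.2% of all probe sets were called. SNHG5 then had -0.41, SNHG7 -0.36, GAS5 -0.35 and SNHG6 -0.34. Each was smaller in size than in the deposited values, though SNHG7 changed little, from -0.38. Whether the deposited differences of these loci come from a shift with level was not tested.

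**Figure D3:**
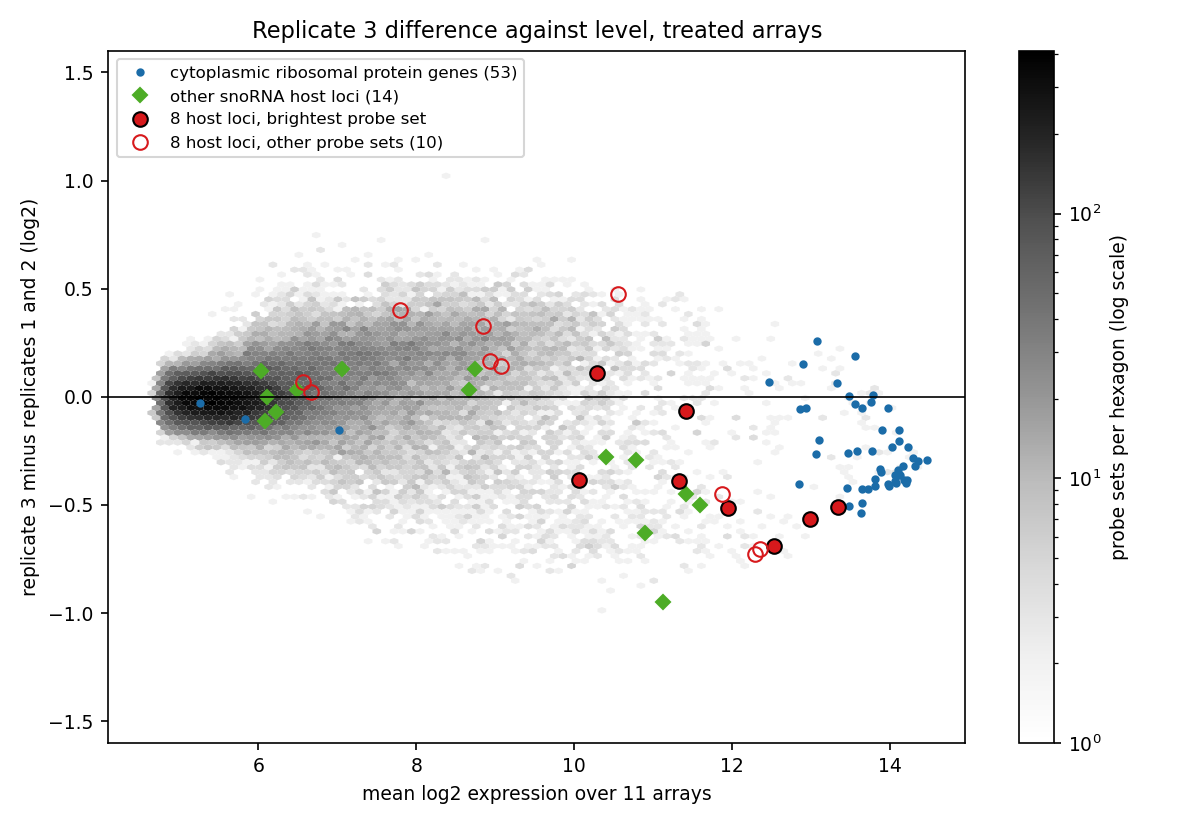
Difference of replicate 3 from replicates 1 and 2 in the treated arrays (log2, y axis) against the mean log2 expression over 11 arrays (x axis). Grey hexagons count all probe sets on a log scale, and coloured points are the 8 host loci, 14 other snoRNA host loci and 53 ribosomal protein genes. Above a level of 10 most host points lie below 0, and dim host probe sets lie near or above it.

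Transcripts that share the TOP start or the hosting of snoRNAs were compared in the same way, over a table with 1 probe set for each of 19775 genes, of which 30.3% were called in replicate 3 (17.7% higher and 12.6% lower). Of the 9888 genes at or above the median level, fitted alone, 3445 were called higher and 2290 lower, with a median of 0.061. Among cytoplasmic ribosomal protein genes with a single-symbol probe set 35 of 53 fell and 2 rose, with a median difference of -0.282 beside 0.001 over all genes. Any ribosomal protein gene listed only together with snoRNAs was left out of this count. RPL34 had -0.54, RPL38 -0.51, RPL35A -0.49 and RPL24 -0.43. Other TOP messages, which encode translation factors and the like, did not share this direction: 2 of 15 fell and 5 rose, with a median of 0.053. EIF3E, a subunit of initiation factor eIF3, had -0.5, and TPT1, the translationally controlled tumour protein, had -0.33, whereas the eIF3 subunits EIF3L and EIF3H each had 0.33.

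Other snoRNA host loci resembled the 8 where they were bright. Of 15 listed, 14 were measured, by the brightest probe set with the gene's own symbol or with its snoRNAs. The 6 with a level of at least 10 all had negative replicate 3 differences, with a median of -0.475: SNHG29 -0.95, EPB41L4A-AS1 -0.63, SNHG32 -0.5, TAF1D -0.45, DANCR -0.29 and SNHG16 -0.28. The TAF1D value comes from a probe set listed with its snoRNAs, and its dimmer single-symbol probe set, with a level of 7.62, had 0.11. The 8 dimmer loci lay between -0.11 and 0.13, with a median of 0.03. Among the 7 listed with a single symbol, 3 of 7 fell in the table of genes, EPB41L4A-AS1 (adjusted p = 4.8e-18), SNHG32 (adjusted p = 1.18e-11) and DANCR (adjusted p = 0.000122), and none rose.

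The factors that control TOP messages gave a mixed picture in replicate 3, with 5 of 12 called higher and 2 lower (median 0.114), where 17.7% of all genes were called higher and 12.6% lower. Of the 9888 genes at or above the median level, 3445 were called higher and 2290 lower (median 0.061). EIF4EBP1, the mTOR substrate that represses cap-dependent initiation, was lower (-0.7 ± 0.07, adjusted p = 4.06e-22), as was the mTOR substrate kinase RPS6KB1 (-0.27 ± 0.07, adjusted p = 0.000422). MTOR itself had 0.38 ± 0.07 (adjusted p = 4.82e-07) and the TOP-binding protein TIA1 had 0.29 ± 0.07 (adjusted p = 0.000134). Of the nonsense-mediated decay factors, 9 of 16 rose and 2 fell, with a median of 0.214, to be read beside the same 2 backgrounds. The core factor UPF2 rose by 0.46, the cap-binding NCBP1 by 0.47 and the exon junction helicase EIF4A3 by 0.37, whereas MAGOHB, another exon junction protein, had -0.7. These are transcript levels, and neither translation nor decay was measured.

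The proteins that bind the snoRNAs are read against the same shares over all genes, 17.7% higher and 12.6% lower. Of the 9888 genes at or above the median level, 3445 were called higher and 2290 lower (median 0.061). Of the box C/D core and assembly genes, 5 of 10 rose in replicate 3 and 1 fell, with a median of 0.174: the core protein NOP58 rose by 0.44 and the assembly factors RPAP3 and RUVBL1 by 0.4 and 0.3, while ZNHIT3 had -0.59. Of the box H/ACA genes 3 of 5 fell and 1 rose, with a median of -0.409: NOP10 had -0.68, GAR1 -0.56 and the assembly factor NAF1 -0.41, while SHQ1 rose by 0.34. The difference between the classes was not tested, and the lists hold 10 and 5 measured genes.

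The second question was whether the oligos changed the host transcripts against the scrambled control. Over all arrays, none of the 18 host probe sets passed in any comparison with control (limma, lowest adjusted p = 1), and 0% of all probe sets passed. At an unadjusted p under 0.05 there were 1, 0 and 1 host probe sets with miR-99a, miR-100 and both oligos, among 779, 1075 and 2339 of all probe sets. The median difference of the 8 brightest from control was -0.039 after the miR-99a oligo, -0.029 after miR-100 and 0.12 with both, beside 0, -0.004 and 0.003 over all probe sets. With both oligos the median over probe sets other than hosts varied with level. It was -0.081 at 10 to 11, -0.043 at 11 to 12, 0.035 at 12 to 13 and 0.177 from 13 up.

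These medians depended on single arrays. With miR-99a the median was -0.151 without control replicate 1, 0.08 without control replicate 2, and 0.102 without its own replicate 3. With miR-100 it was -0.143 and 0.094 without the same controls and 0.065 without its own replicate 3. With both oligos it was -0.001 and 0.249 without the same controls, -0.004 without its own replicate 2 and 0.309 without its own replicate 3. Replicate 3, which control lacks, also turned the sign with the single oligos: with replicate 3 as a term in the fit the medians were 0.088, 0.114 and 0.265. In that fit 4 of the 18 host probe sets rose with both oligos, ZFAS1 at 226227_x_at, 224915_x_at and 226835_s_at and SNHG5, where 1.05% of all probe sets were called. ZFAS1 then had 0.49 ± 0.1 (adjusted p = 0.0206) and SNHG5 0.37 ± 0.09 (adjusted p = 0.0387). With replicates 1 and 2 alone 3 of 18 rose, 226227_x_at, 224915_x_at and SNHG5, where 0.408% of all probe sets were called.

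The largest of these differences was ZFAS1 with both oligos, 0.26 ± 0.28 (SE, 3 arrays against 2, 95% interval -0.36 to 0.88), and with the single oligos it had -0.01 and -0.03. SNHG5 had 0.18 ± 0.23, SNHG7 0.17 ± 0.19, SNHG6 0.14 ± 0.22 and SNHG8 0.1 ± 0.2 with both oligos, each with an adjusted p of 1. GAS5 at 224741_x_at had -0.11, -0.09 and a difference under 0.01 in size with miR-99a, miR-100 and both (SE 0.22, interval for both -0.49 to 0.48). SNHG1 had -0.06, -0.05 and 0.02, and its interval with both oligos, -0.16 to 0.19, was the narrowest of the 8. The interval of ZFAS1 leaves room for a rise as large in size as its replicate 3 fall of -0.69, and that of SNHG1 excludes a change as large as the smallest of the 6 falls.

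Read by replicate number, the arrays of replicates 1 and 2 and that of replicate 3 with both oligos lay on opposite sides of control at 7 of the 8 brightest probe sets, all but SNHG12. ZFAS1 differed from the control of the same number by 0.73 in replicate 1 and 0.33 in replicate 2, and replicate 3 differed from the mean of the controls by -0.28. SNHG5 had 0.49, 0.36 and -0.3, SNHG6 0.45, 0.27 and -0.3, and SNHG7 0.43, 0.21 and -0.12. SNHG8 had 0.36, 0.24 and -0.3 and GAS5 0.28, 0.09 and -0.38, so that these 6 loci were above control in replicates 1 and 2 and below it in replicate 3. SNHG1 had the same order at a smaller size, 0.08, 0.06 and -0.09, and SNHG12 had 0.01, 0.04 and 0.03.

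With miR-99a, replicates 1 and 2 were again above control and replicate 3 below it at these 6 loci: ZFAS1 had 0.38, 0.15 and -0.54, SNHG5 0.25, 0.07 and -0.38, SNHG6 0.17, 0.03 and -0.4, SNHG7 0.19, 0.25 and -0.33, SNHG8 0.08, 0.13 and -0.38, and GAS5 0.15, 0.03 and -0.52. With miR-100, the difference in replicate 1 was 0.25, 0.25, 0.17, 0.21 and 0.17 for ZFAS1, SNHG5, SNHG6, SNHG7 and GAS5. For the same 5 loci, replicate 2 lay between -0.09 and 0.09, and replicate 3 between -0.33 and -0.02. SNHG8 had 0.05, -0.07 and -0.09 with miR-100.

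Counted over the brightest probe sets, 6 of 8 exceeded the control of their number in both replicates with miR-99a, 3 of 8 with miR-100 and 8 of 8 with both. The same held for 28.3%, 25.2% and 29.5% of all probe sets, and for 32.4%, 11.6% and 45.7% of 2377 probe sets with a level of at least 10. The 2 control arrays themselves differed at these loci, replicate 2 being the higher by 0.33 for ZFAS1 and GAS5, and the 3 treatments share them. Replicates 1 and 2 with both oligos lay wholly above both controls at 10 host probe sets (6 of them brightest ones) and wholly below at 3, against 21.1% and 20.6% of all probe sets.

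**Figure D4:**
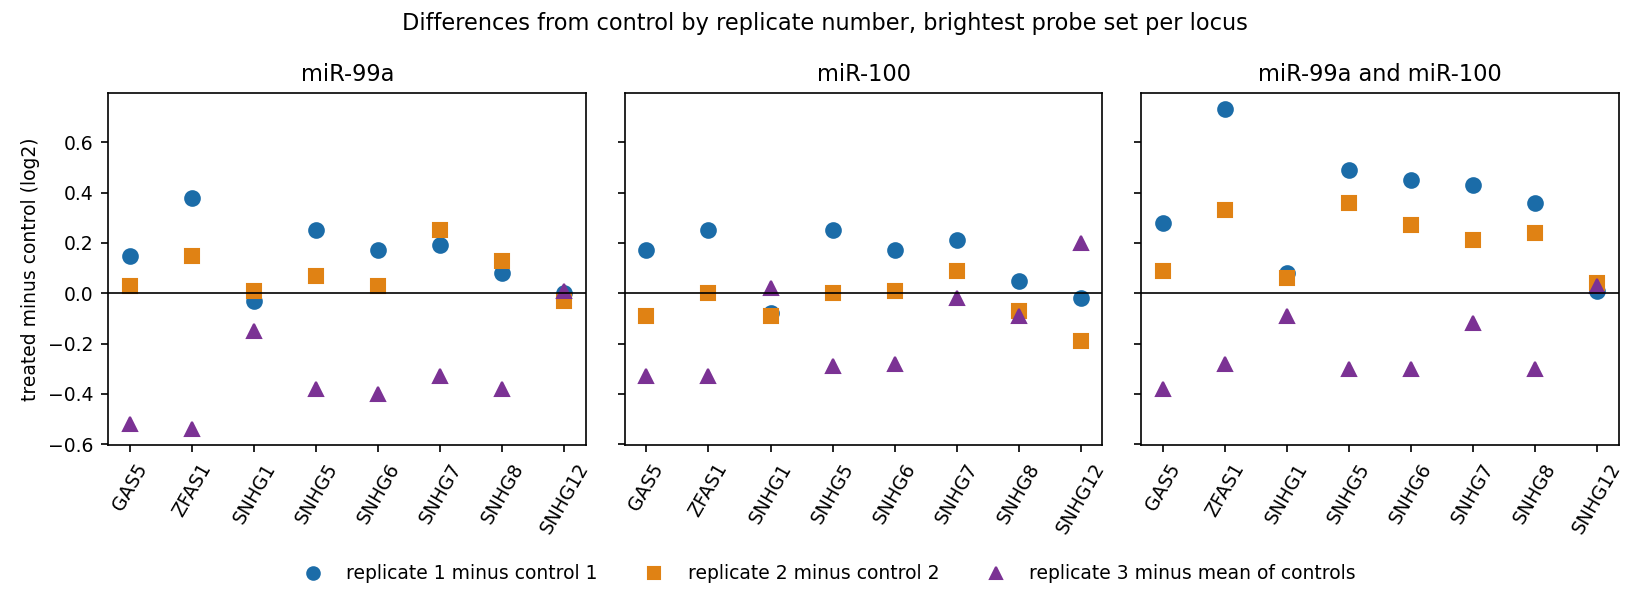
Treated minus control log2 expression (y axis) for the brightest probe set of each host locus (x axis), in 1 panel per treatment. Circles and squares set replicates 1 and 2 against the control of the same number, and triangles set replicate 3 against the mean of the 2 controls. With both oligos the circles and squares lie above 0 and, except at SNHG12, the triangles below it.

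The dim probe sets behaved apart from the bright ones. GAS5 at 1560402_at, the probe set that carries the GAS5 symbol alone, had 6.79 and 6.87 in control, 6.57, 6.59 and 6.62 with miR-99a, 6.69, 6.7 and 6.7 with miR-100, and 6.65, 6.59 and 6.63 with both. All 9 treated arrays lay below both controls, and replicate 3 did not stand apart. Its differences were -0.24 ± 0.06, -0.13 ± 0.06 and -0.2 ± 0.06. The first of these was among the results known when the genes were chosen, so the values are a description only, and they are the lowest probe set of a locus whose bright probe sets had overlapping groups. SNHG7 at 1552729_at went the other way, with 6.34 and 6.5 in control and 6.52 to 6.71 in the 9 treated arrays. All of these lay above both controls, with differences of 0.18, 0.19 and 0.19 (SE 0.09, adjusted p = 1 each). Apart from these, 223774_at of SNHG12 was the only host probe set with no overlap over all 3 replicates, higher with both oligos. Groups without overlap, in either direction, made up 15.8%, 14.7% and 20.8% of all probe sets with miR-99a, miR-100 and both.

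The oligos were also compared with each other. miR-100 against miR-99a, at the same dose, gave differences of -0.02 to 0.06 at the 8 brightest probe sets, and none of the 18 passed (adjusted p = 1). By replicate number the 8 differences ran from -0.13 to 0.02 in replicate 1, from -0.2 to -0.02 in replicate 2 and from 0.09 to 0.31 in replicate 3. The mean over the replicates thus joined opposite signs in replicates 2 and 3. The 95% intervals ran from -0.58 to 0.53 for ZFAS1, the widest, and from -0.15 to 0.16 for SNHG1, the narrowest. With the replicate number as a block, since these arrays paired by number, the 8 intervals lay within -0.18 and 0.21. A mean difference over the replicates as large as the smallest replicate 3 fall, -0.38, lies outside each of them. The combination, set against the average of both single-oligo groups at the same total dose, was positive at 8 of 8, from 0.03 to 0.27 with a median of 0.129. Over all probe sets the median was 0. ZFAS1 had 0.27 ± 0.22, SNHG5 0.2 ± 0.18 and SNHG6 0.19 ± 0.17, and none passed (adjusted p = 1). By replicate number the difference was 0.41, 0.26 and 0.15 for ZFAS1, 0.24, 0.32 and 0.03 for SNHG5, and 0.28, 0.25 and 0.04 for SNHG6, positive in 3 of 3. In replicate 3 it was also positive for GAS5 and SNHG7 (0.05 and 0.06) and negative for SNHG1, SNHG8 and SNHG12 (-0.02, -0.06 and -0.07). With the block the differences of ZFAS1, SNHG5 and SNHG6 had an SE of 0.07, 0.06 and 0.06 and adjusted p-values of 0.209, 0.45 and 0.496. The median of the 8 was 0.048 after quantile normalization, 0.032 without the combination's replicate 2, 0.057 without miR-99a replicate 3, 0.211 without miR-99a replicate 2 and 0.316 without the combination's replicate 3. Ribosomal protein genes had 0.22 in the same comparison and other TOP messages 0.143, as medians of 53 and 15 genes.

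Between replicates 1 and 2 of the treatments, replicate 2 was the higher at 8 of 8 brightest probe sets, with a median difference of 0.12 and a range of 0.03 to 0.19. None of the 18 passed (limma, lowest adjusted p = 0.546), and 0.309% of all probe sets did. An unadjusted p under 0.05 was found for 5 of the 18 host probe sets and for 3673 of all 54613. At the 6 loci that fell, the replicate 3 difference was larger in size than each of the differences between replicates 1 and 2.

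The genes whose levels followed the 8 loci most closely were picked by correlation with the mean of the brightest probe sets over 11 arrays. They were SNHG32 (0.997), the B-cell transcriptional coactivator POU2AF1 (0.993), the transcription factor CEBPB (0.981), OTUD1 (0.981) and OCIAD1 (0.98). Over the 8 arrays of replicates 1 and 2 the same genes had 0.995, 0.988, 0.947, 0.966 and 0.963. These 8 arrays are among the 11 that picked the genes. For the brightest GAS5 probe set they were ATP5MC2, a subunit of ATP synthase (0.991), VPREB3 (0.984), SF3B6 (0.983), TIFA (0.981) and TMEM59 (0.981). For 1560402_at they were SYCP1 (0.885), CARNMT1 (0.883), SLC25A43 (0.878), MAGEB18 (0.868) and ANKRD7 (0.853), of which SYCP1, MAGEB18 and ANKRD7 had mean levels of 4.76 to 5.03. The points of each correlation share arrays and the genes were picked as the highest of all genes, so no p is given.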

How the data were processed

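RNA from 11 samples was hybridized to Affymetrix whole-genome arrays with one-cycle labelling, per the labels' protocols. The deposited values are log2 expression. How probes were summarised and normalized is not given in the sources used here. Near-equal medians with unequal distributions at high levels can leave shifts with level, so quantile normalization was tried.

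The probe table lists 1 symbol for 41091 probe sets, several for 1801 and none for 11721. The 62 control probe sets were left out and no filter on dim ones was applied. Planned tests used 19775 genes, each by its brightest single-symbol probe set. Because this left 6 of 8 hosts out, a fit over all 54613 probe sets was added after the data were seen. It gives every host value. Its median of 8 takes each locus's brightest probe set.

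limma 3.58.1 in R 4.3.3 fitted group means over all 11 arrays, or treatment plus replicate number over the 9 treated arrays, with Benjamini-Hochberg adjustment over all features; an adjusted p under 0.05 was called (2-sided). limma draws the spread of each feature towards that of all features. In the replicate 3 fit the SE was 0.06 or 0.07 at every host probe set. Its p-values thus rest mostly on the shared spread and not on that of the named probe set. The fits were tested on simulated data. Members and lists were chosen with earlier results of these data known, ribosomal protein levels in replicate 3 and a GAS5 value included. All host probe sets are named. From each list up to 4 genes with the smallest p may be named, and the 5 genes of highest likeness.

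Replicate numbers were checked as a pairing by the correlation of deviations from group means. Treated arrays of the same number correlated in 9 of 9 pairs (0.168 to 0.816), whereas control and treated arrays passed 0.1 in 3 of 6 (-0.152 to 0.438). The numbers were thus read as pairing the treatments with each other, although the shared replicate 3 difference enters all 9 of these correlations. Deviations of the 2 control arrays are mirror images, so the check cannot tell whether the numbers pair control with treated arrays. Alternatives were the replicate number as a block, replicate 3 as a term, replicates 1 and 2 alone, quantile normalization, a level filter, the median over probe sets and leaving out each array. The replicate block with quantile normalization, and the block with each array left out, were chosen after seeing the data.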

Additional observations from a re-analysis of the deposited data

How the results depend on the processing

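Most values kept their side of the threshold: of the counts of called host probe sets 118 stayed within 1.5 times and 6 moved, of the medians over the 8 loci 129 stayed within the spread and 3 moved, and no value changed sign while called. The count of called genes moved in 23 settings and stayed in 117. Of the values of single host probe sets 2217 stayed, 11 moved and 4 became calls. Of the 11, 8 are GAS5 at 1560402_at without 1 of the controls (-0.28 to -0.09) and 3 turned sign uncalled after quantile normalization.

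The replicate block changed the comparisons with control. With it, 5 of 18 host probe sets rose with both oligos, where 2.35% of all probe sets were called: ZFAS1 at 226227_x_at by 0.49 ± 0.09 (adjusted p = 0.00283) and at its other bright probe sets by 0.45 and 0.41, SNHG5 by 0.37 (adjusted p = 0.0136) and SNHG6 by 0.31 (adjusted p = 0.0366). In the mean of all treatments 2 were called (ZFAS1, 0.3 at both, adjusted p = 0.0452; 0.969% of all probe sets) and with the single oligos none. The count with both oligos was 4 with replicate 3 as a term (1.05% of all probe sets), 3 with replicates 1 and 2 only (0.408%), and 4 with the block and quantile normalization (1.71%), where SNHG5 and SNHG6 were lost (0.21 and 0.11, adjusted p 0.141 and 0.534), SNHG7 was called (0.37, adjusted p = 0.0178) and 1 was called in the mean of all treatments. Without control replicate 1, which leaves a single control array, the block difference of ZFAS1 at 226227_x_at was 0.34, and without control replicate 2 it was 0.63. Without the combination's replicate 1 the block called 0 of 18, and 56 of all 54613 probe sets. Without any other treated array it called 4 to 7 of 18, and 674 to 2099 of all probe sets. The calls without the combination's replicate 2 included a fall, GAS5 at 227517_s_at (-0.38, limma adjusted p = 0.0326). Whether the numbers pair control with treated arrays could not be told. The fits with replicate 3 as a term and with replicates 1 and 2 only use no such pairing. The block changed no host call in the comparisons between treatments. Under the block, the median difference of both oligos from control also rose with level over probe sets other than hosts. It was -0.077 at 10 to 11, 0.005 at 11 to 12, 0.093 at 12 to 13 and 0.242 from 13 up. With block and quantile normalization the same medians were -0.028, -0.019, -0.029 and -0.006.

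Called genes were 863 with both oligos under the block (0 without it), 443 with replicate 3 as a term, 290 with replicates 1 and 2 only and 891 with block and quantile normalization. The same settings gave 507, 24, 198 and 825 in the mean of all treatments. Block and block with quantile normalization gave 5 and 98 with miR-99a, and 7 and 251 with miR-100. miR-100 against miR-99a gave 1 with the block and 1 with replicates 1 and 2 only, and the combination against single oligos 1 with the block. In replicate 3, 5986 genes and 13108 probe sets were called. Between replicates 1 and 2, 31 genes were called, 5 after quantile normalization, 8 by the median over probe sets, 169 over all probe sets, and 4 to 130 with 1 array left out.

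The replicate 3 median of the 8 loci, -0.449, was -0.344 after quantile normalization, -0.273 by the median over each locus's probe sets, and -0.562 to -0.396 with 1 array left out, the lowest without miR-100 replicate 3. SNHG12 was called higher in replicate 3 at 223773_s_at after quantile normalization, and at 223774_at with the level filter. The cause was not tested in any of these cases. Control has 2 arrays and no replicate 3, so the fit over all arrays carries the replicate 3 spread of the treatments.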
